A study of Mus musculus with 4 samples.

Results

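The genes described here are 10 markers of microglia, the resident macrophages of the retina and brain. They are Csf1r, Cx3cr1, P2ry12, C1qa, C1qb, C1qc, Tyrobp, Fcer1g, Ctss and Itgam, out of 21828 genes analyzed. They were taken up by name from a group of microglia and complement genes whose FPKM leaned to the EGFP-positive cells at P1. The members were thus chosen by their FPKM at P1, which are given below as a description.

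Retinas of pHes1-EGFP transgenic mice (strain FVB/N), in which a Hes1 promoter fragment drives a destabilized EGFP, were dissociated at postnatal day 1 (P1) and postnatal day 4 (P4). Cells were sorted into an EGFP-positive fraction (pHes1_EPC), meant to hold Müller glia, and an EGFP-negative fraction (pHes1_ENC) with the other retinal cells. All 4 groups carried the transgene and received no treatment, and each is 1 RNA-seq library. The sort used EGFP alone and no microglia marker, and whether the retinas of several animals were pooled for a library is not given in the sources used here. With 1 library for a group there is no replicate check, so no p-value is given. Intervals cover counting error only and not the spread between animals or sorts.

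Microglia are not made by retinal progenitors. They arise from yolk sac precursors, enter the retina before birth, and live on signals from their neighbors: CSF1 and IL-34 act through the receptor encoded by Csf1r, and fractalkine, the product of Cx3cl1, acts through that of Cx3cr1. P2ry12 encodes a purinergic receptor that senses ADP and steers their processes. The products of C1qa, C1qb and C1qc are the chains of C1q, the starter molecule of the classical complement pathway, and C1q tags synapses and debris for removal. Tyrobp (also called DAP12) and Fcer1g are signaling adaptors that carry activation motifs for receptors without their own. Ctss encodes the lysosomal protease cathepsin S, and Itgam encodes CD11b, a chain of the complement receptor CR3.

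On NCBI37/mm9 the C1q genes are neighbors on chromosome 4, all on the minus strand: C1qb lies at 136436061 to 136442092, C1qc at 136445717 to 136448829 and C1qa at 136451831 to 136454759. The cluster spans 18699 bases with gaps of 3624 and 3001 bases. Cx3cr1 lies on chromosome 9 at 119957811 to 119977400 and P2ry12 on chromosome 3 at 59020193 to 59066753. Tyrobp and Itgam lie far apart on chromosome 7, at 31198807 to 31202598 and at 135206154 to 135262005. Fcer1g lies on chromosome 1 at 173159703 to 173164480 and Ctss on chromosome 3 at 95330708 to 95360325. P2ry12 lies within the span of Med12l on the opposite strand, and a pseudogene, Hmgb1-ps5, lies within Ctss. Neither shares an exon with the member, so the reads counted for P2ry12 and Ctss do not come from a shared exon.

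The stretches before the start sites are shown because PU.1, the factor that sets up the myeloid lineage, binds purine-rich letters that can be looked up in them. RefSeq promoter sequences (GRCm38.p6) were available for 7 of the 10 members. Each window holds the 250 bases before the start on the strand of the gene, and it was searched on both strands for the core GAGGAA and for its extension GAGGAAGT, which contains the core. The core was found in the windows of C1qb, C1qc, Ctss and Itgam, 4 of 7, while 23.3% of all 32851 windows in the table hold it. The extension was found for C1qc alone, and 2.44% of all windows hold it. In the following sequences the capitals mark the core or its extension, which reads ACTTCCTC in C1qc and TTCCTC at the second place in Itgam because it lies on the other strand there.
C1qb, chr4:136886201-136886450, minus strand: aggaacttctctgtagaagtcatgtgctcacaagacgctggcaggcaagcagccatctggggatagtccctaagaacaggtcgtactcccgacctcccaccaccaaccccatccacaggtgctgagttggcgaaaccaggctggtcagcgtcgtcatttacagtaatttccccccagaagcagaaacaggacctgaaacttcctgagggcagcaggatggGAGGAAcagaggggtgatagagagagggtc
C1qc, chr4:136892915-136893164, minus strand: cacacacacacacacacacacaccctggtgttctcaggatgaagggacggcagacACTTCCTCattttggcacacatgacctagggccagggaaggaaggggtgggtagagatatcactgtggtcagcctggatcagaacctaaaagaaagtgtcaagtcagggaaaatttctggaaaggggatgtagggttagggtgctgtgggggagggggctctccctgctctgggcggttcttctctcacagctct
Ctss, chr3:95526536-95526785, plus strand: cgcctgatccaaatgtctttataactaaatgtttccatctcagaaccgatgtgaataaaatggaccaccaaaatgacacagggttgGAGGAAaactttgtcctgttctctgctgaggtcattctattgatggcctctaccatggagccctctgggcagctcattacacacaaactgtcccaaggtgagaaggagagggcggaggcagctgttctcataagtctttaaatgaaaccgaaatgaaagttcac
Itgam, chr7:128062390-128062639, plus strand: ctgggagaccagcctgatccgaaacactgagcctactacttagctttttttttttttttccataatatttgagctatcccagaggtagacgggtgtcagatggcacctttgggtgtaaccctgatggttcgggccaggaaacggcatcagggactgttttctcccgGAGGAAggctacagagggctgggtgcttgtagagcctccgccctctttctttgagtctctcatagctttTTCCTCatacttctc
The match starts 30 bases before the start site in C1qb, 195 in C1qc and 164 in Ctss, and in Itgam the matches start 84 and 15 bases before it. No match was found in these windows for P2ry12, Cx3cr1 and Fcer1g. A match describes letters only and not a bound site.

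Expression is given as FPKM, fragments per kilobase of transcript scaled to a fixed number of mapped fragments, so levels of different genes are per length and can be compared. The FPKM of these genes are whole multiples of the worth of 1 read, which allowed the reads behind them to be recovered for 8 of the 10 members; for Cx3cr1 and Itgam the reads were estimated from transcript length. The depth implied by transcript lengths was 19.99 to 21.58 in units of 1e6 reads for a library. In all, the 10 genes rested on about 121 reads in pHes1_ENC and 683 in pHes1_EPC at P1, and on 306 and 540 at P4. All of them had FPKM in every library, none above 3.72.

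The receptors were low in both fractions and lowest in P1 pHes1_ENC. Csf1r, on the plus strand of chromosome 18 at 61265226 to 61290793, had an FPKM of 0.238 at P1 in pHes1_ENC (24 reads) and 1.83 in pHes1_EPC (176 reads), and at P4 it had 0.620 (58 reads) and 1.14 (109 reads). The EGFP-positive library was thus the higher at both ages, but the distance between the fractions was smaller at P4, where the ratio of FPKM was 1.84 (95% counting interval 1.33 to 2.58), than at P1, where it was 7.68 (5.0 to 12.3). P2ry12 had 0.221, 1.84, 0.901 and 1.48 FPKM in the same order, from 13, 103, 49 and 82 reads. The EGFP-positive library was 8.30 times the other at P1 (4.65 to 16.1), and 1.64 times at P4 (1.14 to 2.39). Cx3cr1, the fractalkine receptor, had 0.172, 1.24, 0.526 and 0.688 FPKM. At P4 its ratio of 1.31 had an interval that includes 1 (0.846 to 2.03), whereas at P1 the ratio was 7.19 (4.04 to 13.5). Summed over the 3 receptors, FPKM was 7.77 times as high in pHes1_EPC as in pHes1_ENC at P1 and 1.62 times at P4.

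C1qa or C1qc had the highest level of the members in each library. C1qa had 1.24 FPKM in pHes1_ENC and 2.82 in pHes1_EPC at P1 (30 and 65 reads), and 3.08 and 3.72 at P4 (69 and 85 reads). Of all the members it had the smallest P1 ratio, 2.27 (1.45 to 3.63), and P1 pHes1_ENC was the single library that stood clearly below the others. C1qb had 0.212, 2.04, 1.19 and 2.15 FPKM in the same order, from 5, 46, 26 and 48 reads, and C1qc had 0.470, 2.95, 0.876 and 2.44 FPKM, from 11, 66, 19 and 54 reads. Both were higher in the EGFP-positive library at each age: at P4 the ratio was 1.81 (1.10 to 3.04) for C1qb and 2.79 (1.63 to 4.98) for C1qc. That of C1qa was 1.21 at P4, with an interval that includes 1 (0.869 to 1.68).

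The chains are assembled into C1q in equal number, but their FPKM were not in an equal ratio in every library. C1qa made up 64.5% of the summed FPKM of the 3 genes in P1 pHes1_ENC and 59.9% in P4 pHes1_ENC. In the EGFP-positive libraries its share was 36.1% at P1 and 44.7% at P4. C1qa was thus 3.64 and 2.98 times the mean of C1qb and C1qc in the EGFP-negative libraries, against 1.13 and 1.62 times in the EGFP-positive libraries. The lowest of these libraries held 5 reads of C1qb and 11 of C1qc, and no interval was computed for the shares.

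**Figure D1:**
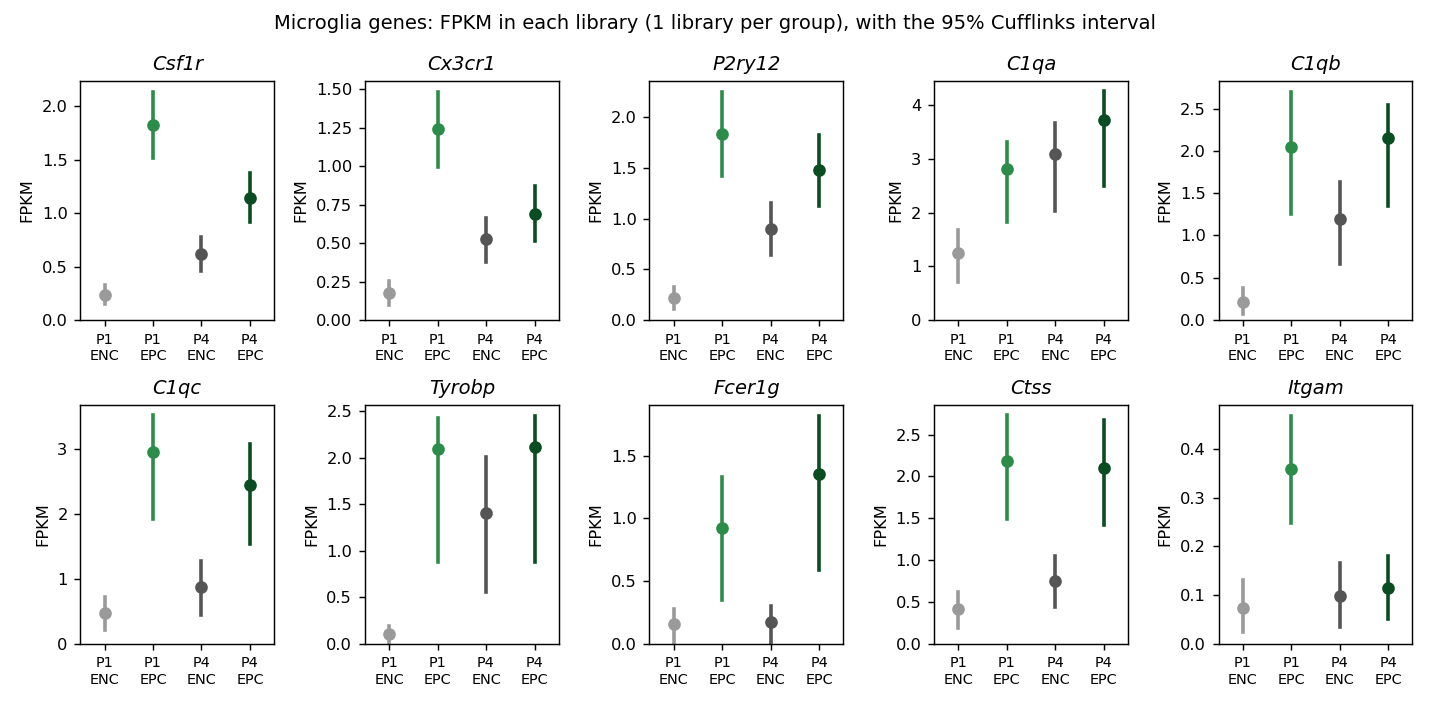
FPKM of each gene (vertical axis, from 0) in the 4 libraries, 1 for each group. Points are FPKM and bars the 95% interval that Cufflinks lists. P1 ENC is the lowest library for all 10 genes, at 0.0735 to 1.24 FPKM.

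The adaptors were carried by few reads. Tyrobp, the partner of TREM2, had 0.10 FPKM from 1 read in pHes1_ENC and 2.1 from 20 reads in pHes1_EPC at P1, and 1.40 from 13 reads and 2.12 from 20 reads at P4. Its P1 ratio of 21.0 is the highest of the members but has the widest interval, 3.35 to 869, and the P4 ratio of 1.51 has an interval that includes 1 (0.714 to 3.30). Fcer1g, the gamma chain of Fc receptors, had 0.160, 0.920, 0.172 and 1.35 FPKM from 2, 11, 2 and 16 reads. Its ratio was 5.76 (1.26 to 53.5) at P1 and 7.84 (1.84 to 70.3) at P4.

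Ctss had 0.410, 2.18, 0.750 and 2.1 FPKM from 13, 66, 22 and 63 reads, in the order P1 pHes1_ENC, P1 pHes1_EPC, P4 pHes1_ENC and P4 pHes1_EPC. The EGFP-positive libraries were alike and both stood above the EGFP-negative ones, and the P1 ratio was 5.32 (2.91 to 10.5), the P4 ratio 2.81 (1.70 to 4.79). Itgam had the lowest FPKM of the members in all 4 libraries, at 0.0735, 0.359, 0.0978 and 0.114, from an estimated 8, 35, 9 and 11 reads. P1 pHes1_EPC stood apart for this gene, at 4.88 times P1 pHes1_ENC (2.09 to 11.4), while at P4 the ratio was 1.16 (0.451 to 3.27).

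At P1, where the choice of members used the comparison, all 10 genes were higher in pHes1_EPC, with ratios from 2.27 to 21.0 and a ratio of 5.54 for their summed FPKM (3.30 in pHes1_ENC, 18.3 in pHes1_EPC). On the log2(FPKM + 1) scale, which understates the change of genes this low, the median difference was 1.18 and 6 of 10 differed by more than 1. Of all genes, 39.9% were higher in pHes1_EPC, 6.10% differed by more than 1 in this direction and 6.79% in the other. The counting interval lay above 1 for 10 of 10, against 24.9% above and 33.5% below among 4651 genes of similar level, those whose higher FPKM was 0.1 to 5. Nothing is read from these counts, since the same contrast chose the genes. In bulk RNA of sorted cells, fewer microglia and less RNA of these genes in each microglia cannot be told apart.

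The rule of choice did not use P4, but earlier results of these data were known when the members were chosen. At P4 the members were on the side of pHes1_EPC, by less than at P1. The summed FPKM was 9.62 in pHes1_ENC and 17.3 in pHes1_EPC, a ratio of 1.80, and single ratios ran from 1.16 for Itgam to 7.84 for Fcer1g. All 10 were above 1 in the values as deposited. Of all genes, 45.2% were higher in pHes1_EPC, with genes equal in both libraries counted as not higher. After rescaling the libraries to the same total, which turned C1qa and Itgam, 8 members were above 1. After quantile normalization, which also turned Cx3cr1, 7 were. The intervals of these 3 genes include 1. The counting interval lay above 1 for 6 of 10 members (Csf1r, P2ry12, C1qb, C1qc, Fcer1g and Ctss) and below 1 for 0, against 36.5% above and 24.1% below among 4598 genes of similar level. After rescaling to the same total or median-of-ratios scaling it lay above 1 for 4 of them, Csf1r, C1qc, Fcer1g and Ctss, and the shares among genes of similar level were then 29.3% above and 31.4% below after rescaling, and 31.9% and 29.2% after median-of-ratios scaling. These 4 are also the members whose Cufflinks intervals did not overlap at P4. Both kinds of interval rest on the same reads, and the share of all genes was not computed for the Cufflinks intervals. On the log2(FPKM + 1) scale the median difference was 0.39 (0.29 after median-of-ratios scaling and 0.13 after quantile normalization), and 1 of 10 differed by more than 1, Fcer1g at 1.00, against 9.85% of all genes that were higher by more than 1 and 5.42% that were lower. The median log2 difference of the genes with at least 1 FPKM in both P4 libraries was 0.13.

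**Figure D2:**
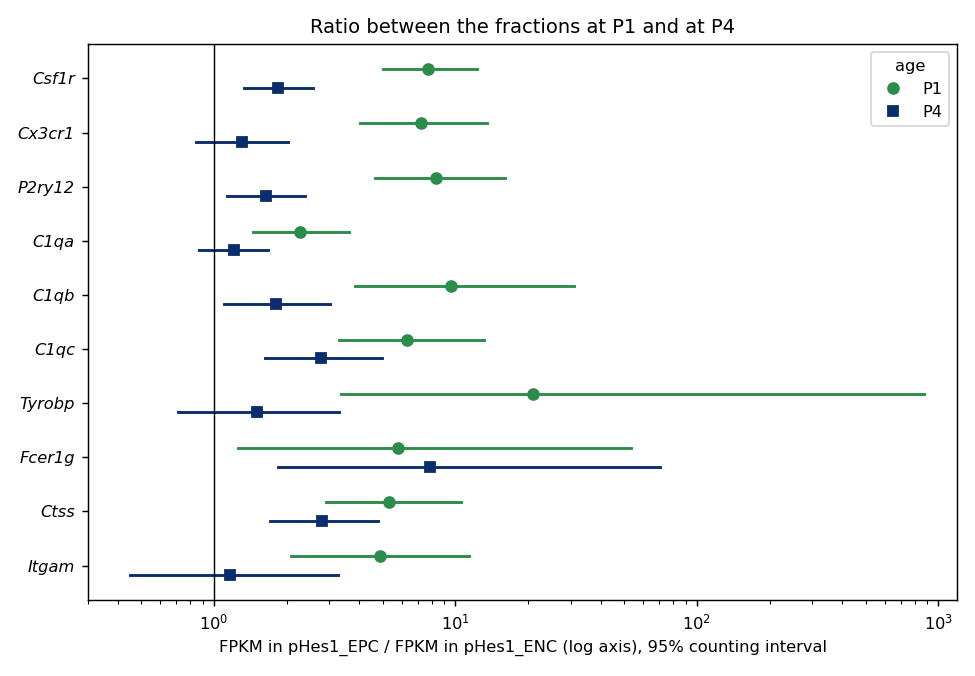
FPKM in pHes1_EPC divided by FPKM in pHes1_ENC (horizontal log axis) for each gene at P1 (circles) and P4 (squares). Bars are 95% counting intervals and the line marks 1. For 9 genes the P4 point lies left of the P1 point, and for Fcer1g it lies right of it.

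The age comparisons share the P1 libraries on which the genes were chosen, so the P1 distance enters both of them. In pHes1_ENC, the summed FPKM was 2.92 times as high at P4 as at P1 (4.69 times after quantile normalization). Among 4927 genes of similar level, the interval lay above 1 for 13.7% and below 1 for 41.7%. It lay below 1 for 0 of the 10 members and above 1 for 6. They were all 3 receptors, with ratios of 2.61 for Csf1r (1.6 to 4.39), 3.05 for Cx3cr1 (1.6 to 6.0) and 4.07 for P2ry12 (2.17 to 8.18), and C1qa, C1qb and Tyrobp, with ratios of 2.48 (1.6 to 3.95), 5.61 (2.12 to 18.7) and 14.0 (2.11 to 596). The same 6 kept intervals above 1 after both linear rescalings. Fcer1g, with 2 reads at each age, had a ratio of 1.08 (0.0783 to 14.9), and rescaling to the same total turned it to the other side of 1. The difference of log2(FPKM + 1) was above 1 for 1 of 10, Tyrobp at 1.13, against 2.77% of all genes.

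In pHes1_EPC the summed FPKM at P4 was 0.947 times the P1 value as deposited. There 4 members were higher and 6 lower, and 48.6% of all genes were higher. The summed FPKM was 0.750 times after rescaling to the same total, 0.836 after median-of-ratios scaling and 0.823 after quantile normalization. Each of these had 2 members higher and 8 lower. Of the receptors, Csf1r was at 0.625 times its P1 FPKM (0.488 to 0.799) and Cx3cr1 at 0.554 times (0.386 to 0.783), while P2ry12 was at 0.804 times, with an interval that includes 1 (0.594 to 1.09). Itgam was lowest, at 0.318 times (0.145 to 0.639). For the other members, from C1qc at 0.826 (0.566 to 1.2) to Fcer1g at 1.47 (0.640 to 3.5), the intervals include 1. The interval lay below 1 for 3 of 10 members and above 1 for 0, against 20.8% below and 29.6% above among 4691 genes of similar level. After rescaling to the same total it lay below 1 for 5, against 31.8% below and 19.5% above. No member lay below -1 on the log2(FPKM + 1) scale, as 2.57% of all genes did. Summed by role, the receptors were at 0.674 times their P1 FPKM and the C1q chains at 1.06 times.

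**Figure D3:**
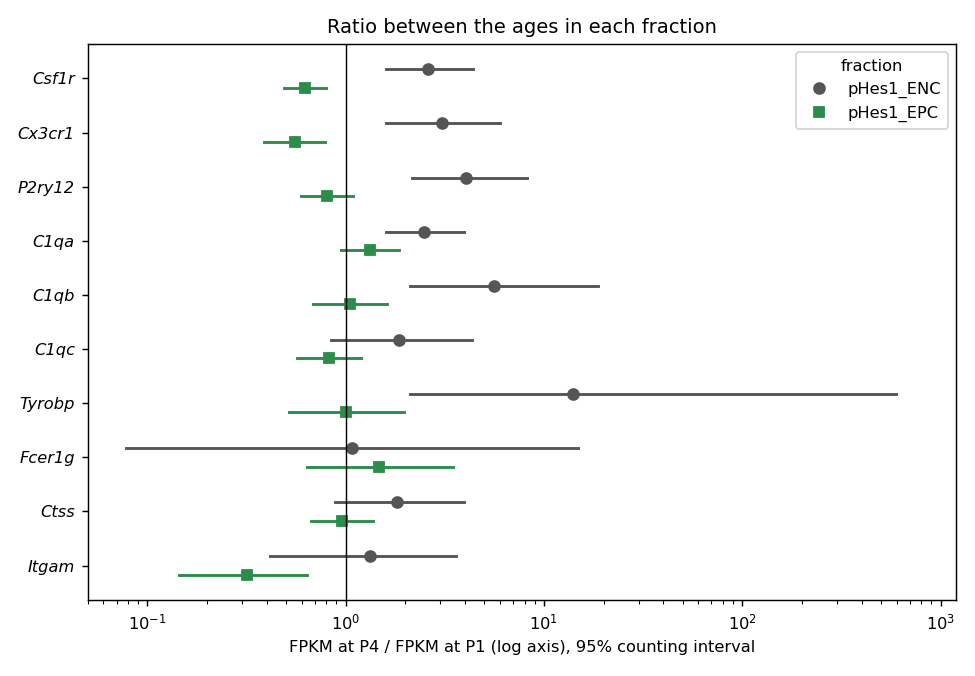
FPKM at P4 divided by FPKM at P1 (horizontal log axis) for each gene in pHes1_ENC (circles) and pHes1_EPC (squares). Bars are 95% counting intervals and the line marks 1. In pHes1_ENC all 10 points lie right of 1, and in pHes1_EPC 6 lie left of it. Of all genes, 37.9% were higher at P4 in pHes1_ENC and 48.6% in pHes1_EPC.

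Within a library the order of the members was only partly resolved. In P1 pHes1_ENC it ran from C1qa at the top to Itgam, and the Cufflinks intervals of all 9 pairs of neighbors overlapped. In the other libraries 8, 7 and 7 of the 9 pairs overlapped. The steps that stood apart were from Csf1r down to Cx3cr1 in both pHes1_EPC libraries, from C1qa down to Tyrobp and from Cx3cr1 down to Fcer1g in P4 pHes1_ENC, and from Cx3cr1 down to Itgam in P4 pHes1_EPC. Among all genes, the median member stood at percentile 36.7 in pHes1_ENC and 50.6 in pHes1_EPC at P1, and at 46.3 and 48.8 at P4.

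Beside the members stand 32 further genes of microglia and other myeloid cells in 3 lists. None was at 0 in all libraries, but of the 9 genes of monocytes and neutrophils only 1 was. The P1 values of the 32 genes come from the contrast that chose the members, so they are no independent check of the label. At P1, 28 were higher in pHes1_EPC and 4 lower, the interval lay above 1 for 20 and below 1 for 2, and the median log2(FPKM + 1) difference was 0.25. At P4, 23 were higher and 9 lower, and the interval lay above 1 for 11 and below 1 for 1, with a median difference of 0.10. Of all genes, 39.9% were higher in pHes1_EPC at P1 and 45.2% at P4. The P4 count of intervals above 1 is close to the share of 36.5% among genes of similar level, and that share at P1 was 24.9%. Of the 9 surface and lysosomal genes of microglia, the interval lay above 1 for 8 at P1 and 4 at P4, and below 1 for 0 at either age.

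Fcrls, an Fc receptor-like gene of microglia, had 5 reads in pHes1_ENC and 59 in pHes1_EPC at P1, and 12 and 31 at P4. Laptm5, a lysosomal gene of blood-derived cells, had 16, 79, 36 and 69 reads in the same order, which holds for the genes that follow. Of the general myeloid genes that reached 1 FPKM, Cd68, a lysosomal gene of macrophages, had 2.62, 4.40, 2.34 and 4.25 FPKM, and Lcp1, an actin-bundling gene of leukocytes, had 0.467, 0.718, 0.202 and 1.27. Both had intervals above 1 at both ages, Ly86 had one at P1 and Lyz2 at P4, and for Plek the interval included 1 at both ages. The genes from Tmem119 to Spi1 are named after their values were seen. The microglia genes Tmem119, P2ry13 and Gpr34 had 3, 22, 7 and 10 reads, 3, 39, 11 and 13 reads, and 4, 37, 15 and 16 reads. Each of these was highest in P1 pHes1_EPC, as the receptors among the members were. At P4 their ratios had intervals that include 1 (0.481 to 4.33, 0.479 to 2.86 and 0.484 to 2.27). Selplg, of the same list, was instead highest in P4 pHes1_EPC, with an estimated 4, 14, 12 and 22 reads. Trem2, whose receptor signals through the Tyrobp product, had 1, 22, 10 and 23 reads, close to the 1, 20, 13 and 20 reads of Tyrobp. Spi1, which encodes PU.1 and is listed under its older symbol Sfpi1, had 3, 3, 1 and 4 reads, too few to show a difference.

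Coro1a, an actin-binding gene of leukocytes and neurons, was an exception at P1. It had 5.4 FPKM in pHes1_ENC and 1.64 in pHes1_EPC at P1, a ratio of 0.304 (0.224 to 0.407), and 1.38 and 1.82 FPKM at P4.

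**Figure D4:**
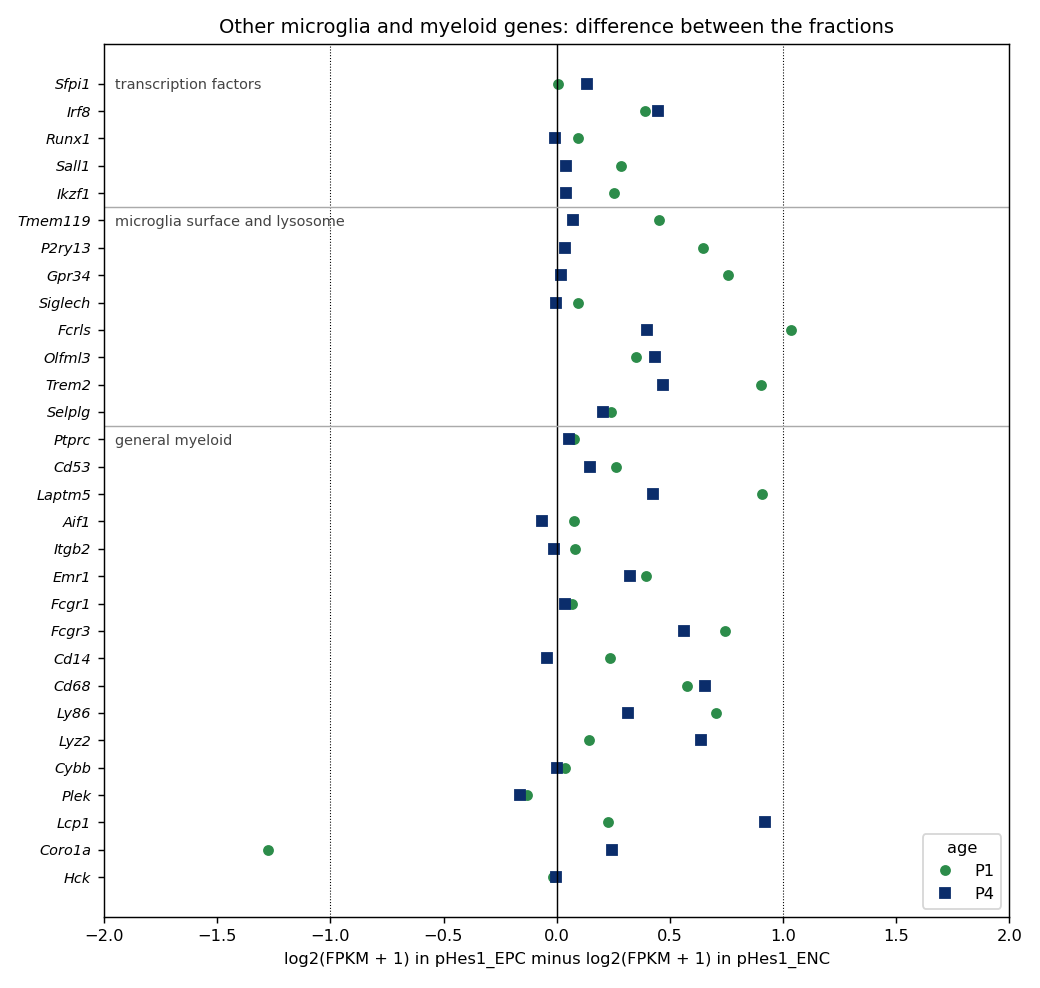
Difference of log2(FPKM + 1) between pHes1_EPC and pHes1_ENC (horizontal axis) for 30 of the 32 other microglia and myeloid genes at P1 (circles) and P4 (squares), in 3 lists. Dotted lines mark -1 and 1. Of the genes plotted, Fcrls at 1.04 passes 1 at P1 and Coro1a lies below -1 at P1.

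The ligands of these receptors were also measured. Csf1, the growth factor for the Csf1r product, had 1.16 and 4.35 FPKM at P1 and 0.280 and 3.57 FPKM at P4 in pHes1_ENC and pHes1_EPC, ratios of 3.74 (3.0 to 4.68) and 12.7 (8.47 to 20.8). Il34, the other ligand of that receptor, stayed at or under 0.0251 FPKM in every library. Cx3cl1, which encodes fractalkine, was on the other side at P1, with 1.57 FPKM in pHes1_ENC and 0.363 in pHes1_EPC, a ratio of 0.231 (0.148 to 0.350), and it had 0.120 and 0.209 FPKM at P4. Tgfb2, a TGF-beta that supports microglial identity, had 10.4, 38.3, 5.33 and 45.3 FPKM, and its ratio was 3.70 at P1 and 8.51 at P4. Csf1, Tgfb2 and Cx3cl1 thus had a larger ratio at P4 than at P1. The P4 interval of Cx3cl1 includes 1 (0.725 to 4.47). Tgfb1 and Icam1, of the same list, are named after their values were seen, and both had a smaller ratio at P4. For Tgfb1 the ratio fell from 3.84 (1.015 to 21.4) to 0.364 (0.177 to 0.705). The intervals of Icam1 include 1 at both ages. Of the 10 members, 9 had a smaller ratio at P4. The part of the ligands in the values of the members was not tested.

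A list of 8 signaling genes stood beside the adaptors Tyrobp and Fcer1g, such as the kinases Syk (listed as Sykb) and Lyn. The interval lay above 1 for 5 of them at P1 and 3 at P4, and below 1 for 0. Among genes of similar level it lay above 1 for 24.9% and 36.5%. Syk had 0.0966, 1.14, 0.0882 and 0.440 FPKM. The rest of the complement system was mixed. Of 21 other complement genes, the interval lay above 1 for 3, below 1 for 5 and included 1 for 7 at P1. The shares among genes of similar level were 24.9% above and 33.5% below. At P4 it lay above 1 for 7, below 1 for 2 and included 1 for 6, against 36.5% and 24.1%. The rest had no interval. The shares leave out genes without reads and genes above 5 FPKM, such as Clu, so they do not match this list. C1r and C1s, the proteases that join C1q, were at or under 0.0600 FPKM in all libraries, and C3 was at or under 0.0517. Clu, an inhibitor of complement lysis, had 3.33, 0.997, 12.8 and 17.2 FPKM, the last being the highest value of this list in any library. Among 12 genes that activated microglia raise, the interval lay above 1 for 7 at P1 and 8 at P4. The shares of 24.9% and 36.5% are of low genes, and abundant genes have narrower intervals. The difference of log2(FPKM + 1) was above 1 for 2 of the 12 at P1 and 3 at P4, against 6.10% and 9.85% of all genes. The most abundant of them, Apoe (83.0, 146, 152 and 838 FPKM), is also a gene of Müller glia.

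Markers of other cells differed between the same libraries. The summed FPKM of 8 Müller glia genes was 380 in pHes1_ENC and 1256 in pHes1_EPC at P1, and 153 and 1931 at P4, and that of 8 cell cycle genes was 247, 1096, 66.8 and 444. All 16 had an interval above 1 at both ages. The 4 rod genes summed to 181, 9.99, 1099 and 216, and the 8 red cell genes to 214, 0.904, 514 and 8.86, both higher in the EGFP-negative libraries. The 10 endothelial genes summed to 66.0, 223, 16.7 and 210, of which Kdr, also a progenitor gene, gave 46.9, 209, 12 and 189, while the defining markers Pecam1, Cdh5, Tie1 and Tek stayed at or under 0.142. Of the other endothelial genes, Cldn5 had 16.3, 3.49, 2.59 and 4.06 FPKM, Egfl7 2.19, 9.52, 1.27 and 15.4, and Flt1 0.0658, 0.715, 0.110 and 1.41. Egfl7 and Flt1 were thus higher in the EGFP-positive libraries at both ages. Cldn5 and Pecam1 (10 reads in pHes1_ENC and 2 in pHes1_EPC) were lower there at P1. The 10 endothelial genes were split, with 5 higher in pHes1_EPC and 5 lower at P1, and 4 higher and 4 lower at P4. The 6 pericyte genes summed to 0.943, 2.52, 0.271 and 1.93, the 5 astrocyte genes to 8.81, 7.03, 27.0 and 58.0, and the 6 pigment epithelium genes to 6.05, 2.06, 12.3 and 51.2. The part of these cells in the values of the members was not tested.

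Macrophages of tissue borders and blood-derived cells also express several of the members. The 8 genes of border macrophages summed to 0.869, 0.784, 2.05 and 0.380 FPKM in P1 pHes1_ENC, P1 pHes1_EPC, P4 pHes1_ENC and P4 pHes1_EPC, of which Cbr2 was at 0 in all libraries, and Pf4, F13a1 and Ms4a7 were at 0 except in P1 pHes1_EPC, at 0.0567 to 0.198. The 9 genes of monocytes and neutrophils summed to 0.540, 0.184, 0.0902 and 0.101, with S100a9 at 0 in all libraries. The 9 lymphocyte genes summed to 1.58, 0.230, 2.49 and 0.504, mostly from Cd4, with Cd3g, Ms4a1 and Nkg7 at 0. Stab1, a scavenger receptor gene, gave 0.669, 0.162, 1.76 and 0.297 FPKM of the border macrophage sums, most of the sum in every library but P1 pHes1_EPC. At P1, 5 of those 8 genes were higher in pHes1_EPC and 2 lower, with Mrc1, the mannose receptor gene, at 0, 13, 1 and 1 reads.

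The genes whose pattern over the 4 libraries was most like the median of the members were sought among 10462 genes with at least 5 FPKM in a library, by the Euclidean distance of centred log2(FPKM + 1) values. The nearest was Srebf1, a transcription factor of lipid synthesis, at a distance of 0.13 and with 28.4, 61.8, 45.5 and 59.7 FPKM. Spry2, an inhibitor of growth factor signaling, followed at 0.15 with 26.6, 53.6, 38.0 and 57.8 FPKM. Others among the 10 nearest were Mina, Blvrb, Cadm1, Obfc1, Dcps, 1110031I02Rik and Nsmce2, at distances up to 0.22. None of the 10 belongs to the microglia lists, of which 3 genes reached 5 FPKM, and 118 genes were nearer to the median than the median member itself, at 0.40. With 4 libraries a likeness of this kind is common. It is also one of log2(FPKM + 1), which understates the change of genes as low as the members more than that of genes above 5 FPKM. The median P1 ratio of the members was 6.74, a larger change in FPKM than that of Srebf1 or Spry2.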

How the data were processed

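RNA of EGFP-positive and EGFP-negative retinal cells at P1 and P4 was sequenced as single-end reads of 36 bases, and the authors aligned them to NCBI37/mm9 with TopHat2 2.0.8b and estimated the FPKM of genes with Cufflinks 2.1.1. The deposited tables hold FPKM with 95% intervals for 23021 gene lines. The 796 lines of small RNAs were left out, and where a symbol had several lines that of highest FPKM entered. Depth was inferred, at 19.99 to 21.58 in units of 1e6 reads, from transcript lengths (GENCODE vM1) and the worth of 1 read.

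Differences are of log2(FPKM + 1), and a gene was counted past 2-fold when the difference exceeded 1. Reads were recovered where all 4 values were whole multiples of 1 read within 0.01, as for 8 members (largest deviation 0.00046) and 54.5% of 6760 low genes, and estimated from length otherwise. Intervals of ratios are exact (Clopper-Pearson, 95%) on those reads and cover counting error only. PCR copies are not independent molecules. With 1 library for each group no test was made, and the counting intervals compare libraries and not conditions.

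Values of some genes of the lists are not reported here, although the counts include them. The members and the lists were chosen with earlier results of these data known. Of the other lists, genes are named by FPKM (at least 1 for microglia, myeloid and ligand genes, otherwise from among the 3 highest, where a result turns on them), apart from those said to be named after their values were seen, the zeros of marker lists, Il34, C3, C1r and C1s. Tried instead were a pseudocount of 0.1, FPKM ratios without any, 3 scalings, a filter at 1 FPKM, and the lines of a symbol summed. Read recovery and counting intervals were tried on simulated random (Poisson) counts with 1 transcript length for each gene. Shared reads and PCR copies were not simulated, so this does not check the estimated reads. Python 3.11.15, numpy 2.4.6, pandas 2.3.3, scipy 1.17.1 and matplotlib 3.10.9 were used.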

Additional observations from a re-analysis of the deposited data

Results flagged for a closer look

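In the values as deposited, the change from P1 to P4 had opposite signs in the 2 fractions for 6 of the 10 genes. They were higher at P4 in pHes1_ENC and lower at P4 in pHes1_EPC. The share of all genes with opposite signs was not computed, so nothing is read from this count. The difference of log2(FPKM + 1) between P4 and P1 was smaller in pHes1_EPC than in pHes1_ENC by the following amounts, written as pHes1_EPC minus pHes1_ENC: -0.79 for Csf1r, -0.79 for Cx3cr1, -0.83 for P2ry12, -0.55 for C1qc, -0.35 for Ctss and -0.32 for Itgam. This difference was not tested, with 1 library in each group. The counting intervals excluded 1 in both fractions for Csf1r and Cx3cr1, and the P1 libraries on which the genes were chosen enter both changes. The other 4 genes, C1qa, C1qb, Tyrobp and Fcer1g, were higher at P4 in both fractions in the values as deposited.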

How the results depend on the processing

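No paired analysis was possible because the labels carry no replicate numbers and each group is 1 library. The pseudocount moved most of the counts. The median difference of the members at P1, 1.18, was 2.36 with a pseudocount of 0.1, 2.75 without one and 1.86 after rescaling to the same total, and the count of genes more than 2-fold higher was 10 with a pseudocount of 0.1 and 10 without one, in place of 6. At P4 the median, 0.39, was 0.72 with a pseudocount of 0.1 and 0.78 without one, and that count, 1, was 3 with a pseudocount of 0.1, 3 without one, 0 after median-of-ratios scaling and 0 after quantile normalization. In pHes1_ENC from P1 to P4 the median, 0.38, was 1.15, 1.35 and, over the 3 genes with at least 1 FPKM, 0.86, and 0.73 after rescaling and 0.63 after quantile normalization, and the count, 1, was 6 and 6 in the pseudocount settings, 4 after rescaling and 3 after quantile normalization. In pHes1_EPC the count of intervals below 1, 3, was 5 after rescaling and 4 after median-of-ratios scaling, while the share among genes of similar level, 20.8%, was 31.8% and 26.8%, the scalings of counting intervals having been added after the data had been seen. For the other microglia and myeloid genes the P1 median, 0.25, was 0.90, 1.83, 0.60 and, over 8 genes with at least 1 FPKM, 0.64, with counts of 14, 23 and 9 for 2. Their P4 median, 0.10, was 0.39, 0.76 and 0.53, with counts of 8, 11 and 2 for 0.

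Scaling turned the sign of small differences. At P4 these were Cx3cr1 (-0.040, quantile), C1qa (-0.018 rescaled, -0.11 quantile) and Itgam (-0.017 rescaled, -0.016 quantile). In the age comparison they were Fcer1g in pHes1_ENC (-0.0076 rescaled), and in pHes1_EPC C1qb (-0.22 rescaled, -0.069 median-of-ratios, -0.10 quantile) and Tyrobp (-0.28, -0.11 and -0.13). Of 200 values of single members under the pseudocount settings and scalings, 128 stayed within their Cufflinks interval, 60 moved out of it, 42 of these in the pseudocount settings, and 12 changed sign. Among genes with at least 1 FPKM in both libraries, the median log2 difference at P4 was 0.13 as deposited and -0.11 after rescaling. Depth limits the members Tyrobp and Fcer1g, with 1 and 2 reads in the lowest library, and several of the other listed genes, such as Spi1 and Trem2, with 1.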
